A study of Mus musculus with 12 samples.

Results

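The genes described here are the mouse zinc finger genes with symbols from Zfp700 to Zfp999. The rule takes symbols of Zfp followed by a number of 3 digits that begins with 7, 8 or 9, and uses no measured value. It was set with earlier results of these data known, so the genes were not tested as a set. The rule found 130 genes, all of them listed among the 43309 features of the day 5 table and 99 of them among the 42802 features of the day 9 table. A filter on low counts left 106 of them for testing at day 5, of 14849 features, and 86 at day 9, of 14617 features.

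Most genes of this numbering encode C2H2 zinc finger proteins, in which each finger folds around a zinc ion held by a pair of cysteines and a pair of histidines and reads a few bases of DNA. Many of them also carry a KRAB box, a domain that recruits the corepressor Trim28 and, with it, the H3K9 methyltransferase Setdb1, HP1 proteins and histone deacetylases. KRAB zinc finger proteins are known for silencing transposable elements, and their genes lie in clusters that grew by tandem duplication, so neighbours are often close copies.

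The study followed mouse neural progenitor cells, which divide in culture and can form neurons and glia, after loss of lamin B1, a protein of the nuclear lamina on which much silent chromatin rests. The cKO group carried the LaminB1fl/fl; Ai3 genotype and the WT group LaminB1+/+; Ai3, both on the C57BL/6 strain. Both groups received a lentivirus with pSox2-Cre, so WT cells carried the same virus and the same Ai3 reporter, and the cells taken for RNA were EYFP+ after sorting, at day 5 or day 9 of the virus. All were grown with EGF and FGF-2 at 10 ng/ml each, and each of the 4 groups had 3 polyA RNA libraries. The labels do not say whether the replicates came from separate animals or cultures, so p-values here measure the spread between these libraries, which may be technical, and cells in which Cre did not act were sorted out.

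Levels in CPM are counts rescaled for library size with no division by gene length. Lmnb1, the deleted gene, had 37.8, 40.7 and 45.04 CPM in cKO libraries of day 5, against 288, 255 and 247 CPM in WT libraries, and 34.3, 32.8 and 39.4 CPM in cKO libraries of day 9, against 156, 210 and 188 CPM in WT libraries. The log2 fold change was -2.68 ± 0.20 at day 5 and -2.38 ± 0.14 at day 9 (SE; edgeR adjusted p = 0.0493 and 1.84e-05), and the day 5 call ended in each fit without 1 library, at an adjusted p of 0.1303 to 0.5823, with cKO libraries below all WT libraries throughout. Library totals were 26720476 to 32127629 counts at day 5 and 13315273 to 24662809 at day 9. A group of 12 features counted here as structural RNA, such as Gm42418 and Rn7sk and including the coding gene Lars2, took 72.4%, 0.362% and 71.2% of the counts in cKO libraries 1, 2 and 3 of day 9, against 15.9%, 34.9% and 17.9% in WT libraries. Outside these features cKO libraries 1 and 3 of day 9 held 3669689 and 3945661 counts, while the other 4 of that day held 16045624 to 22905321. Markers of progenitors were present in all groups, 12 of 12 tested at each day. At day 9 the summed level was 2031 to 2181 CPM in cKO and 3657 to 4206 CPM in WT for the progenitor list (2 rose and 8 fell of 12), and 96.7 to 113 CPM in cKO and 482 to 658 CPM in WT for the list of dividing cells (7 of 8 fell). Neuron markers (5 of 9 tested rose) summed to 525 to 589 CPM in cKO and 130 to 297 CPM in WT, oligodendrocyte lineage markers (9 rose, 2 fell of 11) to 3391 to 4377 CPM in cKO and 948 to 1240 CPM in WT, and astrocyte markers (6 of 8 rose) to 2460 to 2901 CPM in cKO and 1474 to 1633 CPM in WT. Microglial markers summed to 1.27 CPM or less in every day 9 library, with Aif1 at 0. The part of these shifts in the results below was not tested, and in bulk RNA a change in the share of a cell type cannot be told apart from a change per cell.

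Sequence placed the genes in classes. Of the 130, 128 have a coding transcript in GENCODE vM21 (build GRCm38), and Zfp783 and Zfp939 are annotated as transcribed pseudogenes. A KRAB A box was found by pattern in 103 coding sequences and was not found in 25. Genes called without KRAB, or said to have no KRAB box, are those where the pattern found none. A box of divergent sequence can be missed. The 128 proteins held a median of 11 C2H2 fingers, and 98 of the 130 genes lay in clusters of members, with starts less than 1 Mb apart. The fingers that follow come from 4 KRAB genes with raised and 3 genes without KRAB with lowered RNA in cKO cells at day 9. Each is the first finger in the coding transcript with an ordinary spacing and a TGEKP linker, 84 bases within 1 exon, with the codons of the zinc-binding cysteines and histidines and of the linker in capitals, on GRCm38.
Zfp948, chr17:21587193-21587276, plus strand: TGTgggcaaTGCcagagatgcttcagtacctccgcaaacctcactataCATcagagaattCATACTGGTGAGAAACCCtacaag
Zfp738, chr13:67671175-67671258, minus strand: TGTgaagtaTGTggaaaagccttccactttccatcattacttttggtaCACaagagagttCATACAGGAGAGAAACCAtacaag
Zfp942, chr17:21929011-21929094, minus strand: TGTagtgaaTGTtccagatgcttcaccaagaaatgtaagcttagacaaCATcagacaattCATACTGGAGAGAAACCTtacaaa
Zfp932, chr5:110008837-110008920, plus strand: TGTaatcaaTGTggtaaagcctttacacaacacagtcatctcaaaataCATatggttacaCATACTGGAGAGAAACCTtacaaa
Zfp771, chr7:127254024-127254107, plus strand: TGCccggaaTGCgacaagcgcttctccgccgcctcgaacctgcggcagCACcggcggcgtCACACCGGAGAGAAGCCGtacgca
Zfp787, chr7:6132882-6132965, minus strand: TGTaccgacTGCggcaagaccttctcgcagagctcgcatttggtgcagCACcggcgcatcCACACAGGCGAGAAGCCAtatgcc
Zfp768, chr7:127344010-127344093, minus strand: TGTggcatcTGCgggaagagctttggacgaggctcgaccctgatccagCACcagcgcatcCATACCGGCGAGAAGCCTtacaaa
The KRAB fingers of the named risers (these 4 and that of Zfp873) were compared in 10 pairs. Between a pair, 81.5% to 100% of the capital bases and 42.1% to 64.9% of the lower-case bases were the same. The lower-case bases include the codons of the residues that read DNA. The search required the residues that the capitals encode, so bases there could differ only between codons of the same residue. The higher agreement at the capitals was thus set by that choice.

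Some copies were closer than those fingers. The coding sequences of Zfp966, Zfp967, Zfp968 and Zfp969 on chromosome 2, 1455 bases each, did not differ at any base, and neither did those of Zfp965 and Zfp973, 954 bases each. For 40 of the 130 genes, over 20% of the 50-base words of the longest transcript also occurred in transcripts of other genes, on either strand, and for 6 genes every word did. Counts of such genes depend on how reads were divided between copies, and whether strand was used in counting is not given in the sources used here.

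Promoter windows in RefSeq (GRCm38.p6, 250 bases before to 50 after the start) were found for 111 of the 130 genes, 130 windows in all. The windows that follow are those of Zfp738 and Zfp759, which lie in 1 chromosome 13 cluster and rose at day 9, of Zfp935, which also rose, and of Zfp771, which fell. Capitals mark matches on either strand to CCAAT, to GGGCGG, to CCGGAAG or to a spaced motif, ACTACA then 3 bases of any kind then CCC. Matches to GGGCGG overlap one another in the window of Zfp771. These windows are examples. The windows of Zfp932, Zfp942 and Zfp948, which rose, and of Zfp768, which fell, were searched as well. That of Zfp932 held CCAAT and no other motif, and that of Zfp942 held GGGCGG and no other. The window of Zfp948 held none of the motifs, and that of Zfp768 held GGGCGG and no CCAAT.
Zfp738, chr13:67683463-67683762, minus strand: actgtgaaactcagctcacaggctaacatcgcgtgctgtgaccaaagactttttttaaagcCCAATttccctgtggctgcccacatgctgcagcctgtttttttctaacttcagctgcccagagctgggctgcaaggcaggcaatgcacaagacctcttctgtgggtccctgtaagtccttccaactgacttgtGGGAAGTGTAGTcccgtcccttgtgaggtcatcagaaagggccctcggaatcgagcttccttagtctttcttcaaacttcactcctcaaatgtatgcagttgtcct
Zfp759, chr13:67127978-67128277, plus strand: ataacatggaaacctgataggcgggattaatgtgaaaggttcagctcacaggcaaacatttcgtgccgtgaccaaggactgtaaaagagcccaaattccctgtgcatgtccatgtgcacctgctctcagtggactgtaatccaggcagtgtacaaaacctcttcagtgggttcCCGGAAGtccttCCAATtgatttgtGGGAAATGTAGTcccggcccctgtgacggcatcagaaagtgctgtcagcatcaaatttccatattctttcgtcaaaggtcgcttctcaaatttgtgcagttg
Zfp935, chr13:62466763-62467062, minus strand: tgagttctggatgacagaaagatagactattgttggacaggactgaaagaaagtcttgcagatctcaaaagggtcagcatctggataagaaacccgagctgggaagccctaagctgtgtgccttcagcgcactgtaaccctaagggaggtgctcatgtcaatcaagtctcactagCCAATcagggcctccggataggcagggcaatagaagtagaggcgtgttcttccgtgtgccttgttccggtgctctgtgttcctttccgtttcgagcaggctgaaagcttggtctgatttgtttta
Zfp771, chr7:127244276-127244575, plus strand: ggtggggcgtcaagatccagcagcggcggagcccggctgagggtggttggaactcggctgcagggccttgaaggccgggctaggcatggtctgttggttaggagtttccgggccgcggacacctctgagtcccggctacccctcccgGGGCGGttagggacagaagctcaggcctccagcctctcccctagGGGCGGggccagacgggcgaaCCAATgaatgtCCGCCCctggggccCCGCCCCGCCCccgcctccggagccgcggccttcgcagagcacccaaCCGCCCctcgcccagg
The Zfp738 and Zfp759 windows both held that spaced motif on the other strand. It was in 12.4% of the windows of KRAB members, in none of the 22 windows of members without KRAB and in 2.09% of all 32851 windows. CCAAT was in 70.5% of KRAB windows, 40.9% of windows without KRAB and 37.4% of all windows. GGGCGG, the GC box, was in 31.4% of KRAB windows, 72.7% of windows without KRAB and 35.7% of all. CCGGAAG was in 20% of KRAB windows and 8.86% of all, TATAAA in 5.38% of all members' windows and 13.6% of all, and the NRF1 motif, also searched, in 0.769% and 1.01%. Median CpG counts per window were 8 for KRAB members, 24 for members without KRAB and 7 for all windows. Among members that rose at day 9 the spaced motif was in 7 of 41 windows, and among members tested and not called in 5 of 49. In the same 2 sets of windows CCAAT was in 25 and 30, CCGGAAG in 5 and 6 and GGGCGG in 13 and 24. TATAAA was in 3 and 3, and the NRF1 motif in 1 and 0. These shares were not tested against each other. A match describes the letters and is not evidence of binding.

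By level per transcript length, 4 of the 5 highest members at day 5 were genes without KRAB. In TPM, transcript abundance scaled by length and to a fixed total, Zfp740 was the highest on day 5, with 56.5, 36.9 and 61.2 TPM in cKO libraries, against 57.7, 58.6 and 52.8 TPM in WT libraries. Zfp706, which in mouse embryonic stem cells promotes exit from self-renewal, had 34.1, 34.7 and 48.2 TPM in cKO libraries of day 5, against 45.7, 31.5 and 36.4 TPM in WT libraries. The groups overlapped for both genes, and neither passed the test at either day. Zfp777, a KRAB gene on chromosome 6, came next with means of 33.9 ± 9.4 TPM in cKO and 36.9 ± 5.7 TPM in WT libraries of day 5 (SD, n = 3 each), followed by Zfp768 and Zfp771, which have no KRAB box. At the other end 24 genes did not pass the filter at day 5, none above 2.89 CPM in any library and 5 at 0 in all 6, and 13 did not pass at day 9, none above 0.935 CPM and 4 at 0 throughout.

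At day 5 no member passed the test between cKO and WT cells. None of the 106 genes tested had an adjusted p under 0.05 by edgeR's quasi-likelihood test with Benjamini-Hochberg adjustment over all features (background 0.00673% called, 1 of 14849), none had an unadjusted p under 0.05, and DESeq2 and limma-voom called none. The median log2 fold change of cKO over WT was 0.05 for the members and 0.01 for all features. The 6 genes with the smallest p were Zfp709, Zfp839, Zfp941, Zfp783, Zfp786 and Zfp954. Zfp709, with the largest estimate of them, had 0.636, 3.80 and 0.833 CPM in cKO libraries, against 1.54, 0.493 and 0.723 CPM in WT libraries, a log2 fold change of 0.92 ± 0.79 (SE; edgeR adjusted p = 0.9999). One library in each genotype was high and the groups overlapped. In 1 of the 106 genes, Zfp786, all cKO libraries lay below all WT libraries (background 1.35%), and in none above them (background 1.5%).

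That pattern ran through the set. The median KRAB gene (82 tested) had 1.43, 6.53 and 1.80 CPM in cKO libraries 1, 2 and 3 of day 5, against 6.18, 1.89 and 1.79 CPM in WT libraries 1, 2 and 3. The median gene without KRAB (22 tested) had 25.6, 21.1 and 22.5 CPM in cKO libraries, against 21.5, 24.3 and 23.2 CPM in WT libraries. Thus cKO library 2 and WT library 1 stood above their own group's other libraries in KRAB genes, while the medians of genes without KRAB lay close together in all 6. The cKO library 2 was the highest of its 3 in 91.5% of KRAB members, against 49.8% of features of like level, and WT library 1 in 93.9% of KRAB members, against 50.5% of features of like level. Features of like level are those whose mean log2 CPM lay between the 10th and 90th percentile of the class.

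**Figure D1:**
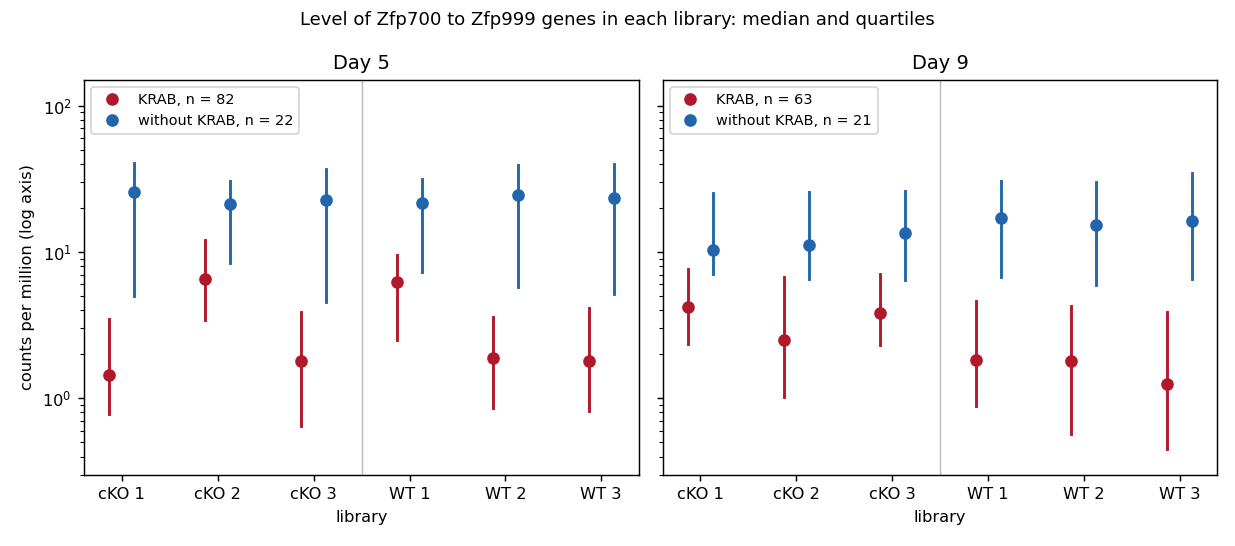
Median (point) and quartiles (line) of CPM on a log axis over the KRAB members and the members without KRAB tested at each day, in each library, cKO left of WT. CPM is not divided by gene length, so the plot compares libraries and not classes. At day 5 the KRAB medians of cKO library 2 and WT library 1 are 6.53 and 6.18 CPM, and those of the other 4 libraries 1.43 to 1.89 CPM. At day 9 the KRAB medians of the 3 cKO libraries, 2.51 to 4.21 CPM, all lie above those of the WT libraries, 1.25 to 1.84 CPM.

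Single genes showed the size of this spread. Zfp948, a KRAB gene of the large chromosome 17 cluster, had 2.51, 16.03 and 1.46 CPM in cKO libraries of day 5, against 15.9, 2.93 and 2.27 CPM in WT libraries. Zfp711, an X-linked gene without KRAB whose human counterpart is mutated in intellectual disability, had 0.778, 7.97 and 0.625 CPM in cKO libraries, against 8.63, 1.54 and 1.27 CPM in WT libraries. The same libraries were high in both genes, and Zfp771 ran the other way with 30.4, 13.5 and 21.8 CPM in cKO libraries, against 13.9, 27.8 and 25.9 CPM in WT libraries. The median within-genotype SD of log2 CPM was 1.10 for KRAB members, 0.35 for members without KRAB and 0.42 for all features. For features of like level it was 0.47 in the band of the KRAB members and 0.41 in that of members without KRAB. Neuron markers summed to 335, 1005 and 364 CPM in cKO libraries 1, 2 and 3, against 890, 373 and 321 CPM in WT libraries. The same 2 libraries were thus high. They were also the highest of their group for the list of dividing cells. Its sums were 2165, 2699 and 2130 CPM in cKO libraries, against 2665, 1993 and 2021 CPM in WT libraries. Oligodendrocyte lineage markers did not show this, at 552, 356 and 379 CPM in cKO libraries, against 630, 648 and 622 CPM in WT libraries. Ribosomal protein genes took 5.56%, 2.99% and 4.81% of counts outside structural RNA in cKO libraries, against 3.76%, 4.94% and 5.50% in WT libraries. Structural RNA took 0.212%, 14.2% and 0.258% of counts in cKO libraries, against 0.0745%, 0.321% and 0.509% in WT libraries. The part of these measures in the spread was not tested. Leaving out cKO library 2 moved the members' median log2 fold change to -0.60, leaving out WT library 1 moved it to 0.64, and leaving out both gave -0.06, with no member called in any of the 3 fits.

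At day 9 members were mostly higher in cKO cells. Of 86 genes tested 37 rose (background 21%) and 5 fell (background 22.6%) by edgeR's quasi-likelihood test at an adjusted p under 0.05, and the median log2 fold change of cKO over WT was 0.66, against 0.01 over all features. Of 7108 features of like level 24.6% rose and 19.1% fell, with a median of 0.14. All 3 cKO libraries lay above all 3 WT libraries in 44 of the 86 genes (background 27.6%) and below them in 7 (background 30.2%). The 37 risers held 30 of 63 KRAB genes, 6 of 21 genes without KRAB and the pseudogene Zfp939, and all 5 fallers were without KRAB. Features of like level to the KRAB genes rose in 24.8% and fell in 16%, with a median of 0.27, against a median of 0.94 for the KRAB genes. Features of like level to the genes without KRAB rose in 22.6% and fell in 23.5%, with a median of -0.01, against a median of 0.19 for the genes without KRAB.

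**Figure D2:**
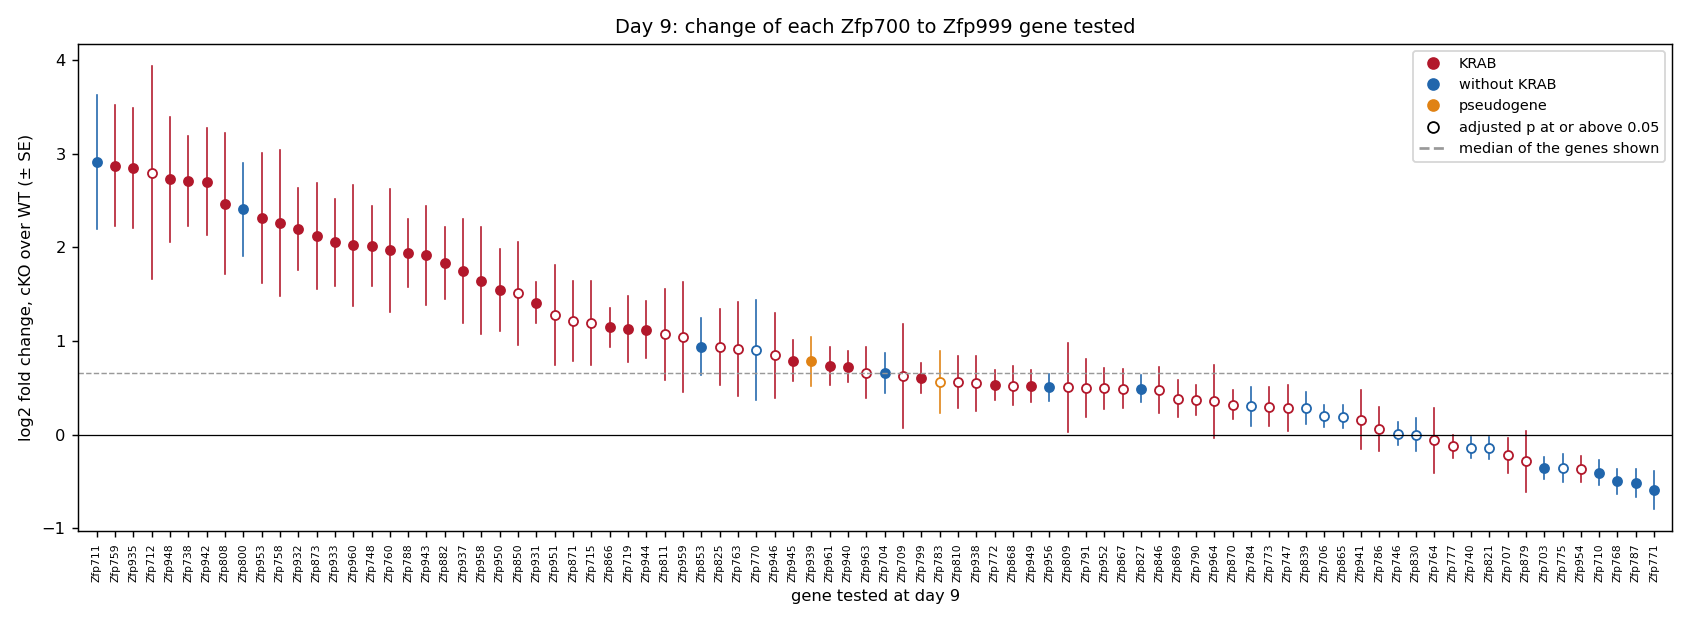
Log2 fold change of cKO over WT at day 9 with its SE for each of the 86 genes tested, in falling order, coloured by class, filled where the adjusted p is under 0.05, with a dashed line at the median, 0.66. The points run from 2.91 for Zfp711 to -0.59 for Zfp771, and 72 of the 86 lie above 0.

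Among called genes that averaged 1 CPM or more and whose groups did not overlap, the 8 largest rises were Zfp759, Zfp935, Zfp948, Zfp738, Zfp942, Zfp800, Zfp932 and Zfp873, of which Zfp800 has no KRAB box. Zfp738, a KRAB gene with 20 fingers on chromosome 13 (67658685 to 67687071), had 7.79, 2.34 and 7.88 CPM in cKO libraries, against 0.932, 0.968 and 0.756 CPM in WT libraries. All cKO libraries were above all WT libraries, with cKO library 2 the lowest of the cKO group. Its log2 fold change was 2.71 ± 0.48 (SE; edgeR adjusted p = 0.00413), a 6.53-fold rise, and it stayed under 0.05 in each fit without 1 library.

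Zfp759, of the same cluster and with 19 fingers, had 2.34, 0.654 and 2.67 CPM in cKO libraries, against 0.311, 0.251 and 0.145 CPM in WT libraries. These rest on 15, 26 and 19 counts in cKO libraries and 11, 7 and 5 counts in WT libraries, with no overlap in CPM and a log2 fold change of 2.88 ± 0.64 (SE; edgeR adjusted p = 0.00936). Zfp942, of the chromosome 17 cluster, had 3.90, 0.981 and 3.66 CPM in cKO libraries, against 0.480, 0.430 and 0.3199 CPM in WT libraries. Again cKO library 2 was nearest to WT, and the log2 fold change was 2.70 ± 0.57 (SE; edgeR adjusted p = 0.00742). Zfp948, of the same cluster, had 2.96, 0.629 and 3.66 CPM in cKO libraries, against 0.395, 0.323 and 0.291 CPM in WT libraries. The groups did not overlap and the log2 fold change was 2.73 ± 0.67 (SE; edgeR adjusted p = 0.0133). Its adjusted p reached 0.0563 when 1 library was left out, and the call ended without cKO library 3 or without WT library 2.

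Zfp932, which binds and silences endogenous retroviruses in mouse embryonic stem cells, had 13.6, 7.39 and 14.9 CPM in cKO libraries, against 3.93, 2.30 and 1.43 CPM in WT libraries. Every cKO library was above every WT library, and the log2 fold change was 2.20 ± 0.44 (SE; edgeR adjusted p = 0.00894). On the deposited TPM scale, where structural RNA takes part of the fixed total, the same gene had 6.33, 20.1 and 5.60 TPM in cKO libraries, against 8.01, 4.68 and 4.10 TPM in WT libraries, so the groups overlapped and cKO library 2 was the highest. Of the transcript words of Zfp932, 45.2% also occur in other genes. Zfp935, for which every word does, had 3.59, 0.704 and 2.96 CPM in cKO libraries, against 0.311, 0.359 and 0.262 CPM in WT libraries. Its counts depend on how reads were divided between the genes that share these words. Zfp800 had 8.42, 2.94 and 6.47 CPM in cKO libraries, against 1.55, 1.11 and 0.582 CPM in WT libraries. Zfp873 had 3.12, 1.41 and 1.97 CPM in cKO libraries, against 0.819, 0.394 and 0.204 CPM in WT libraries. In both genes the groups were apart, with log2 fold changes of 2.41 ± 0.50 and 2.12 ± 0.56 (SE; edgeR adjusted p = 0.00822 and 0.0181), and the call of Zfp873 ended without cKO library 1 or without WT library 2, with an adjusted p of up to 0.0769.

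**Figure D3:**
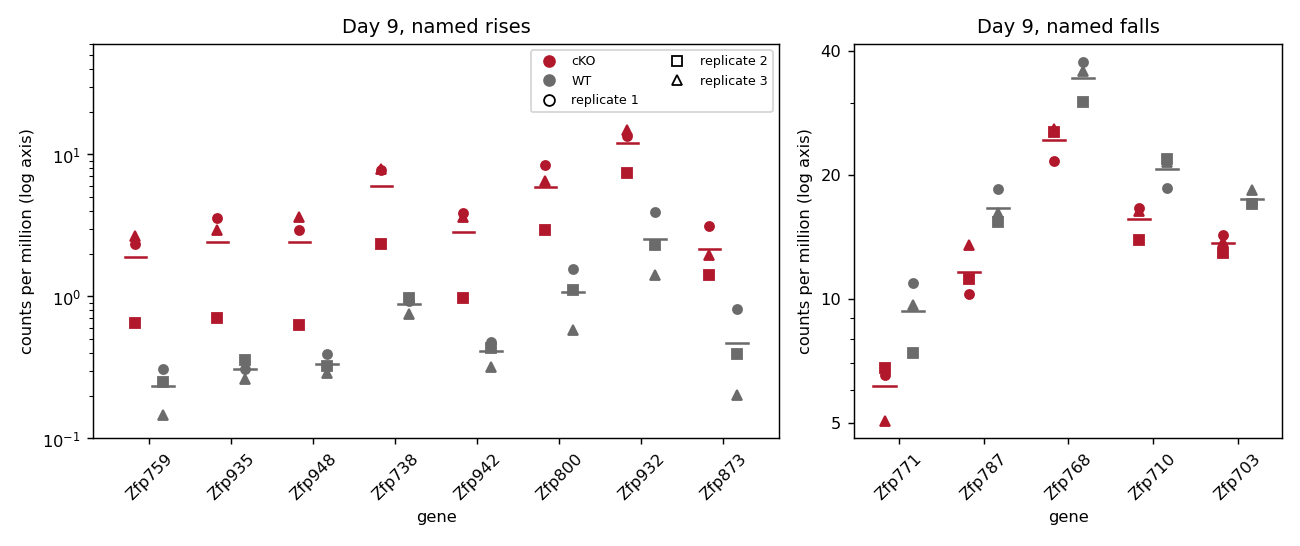
CPM on a log axis in each day 9 library for the 8 named rises (left) and the 5 falls (right), cKO left of WT, with a bar at each group's mean. In the rises cKO libraries 1 and 3 lie above cKO library 2 and all cKO points lie above all WT points. In the falls all cKO points lie below all WT points, and the fitted change is less than 2-fold in each.

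The cKO libraries of day 9 differed among themselves. Over all 86 members, the median log2 difference from the WT mean was 0.78 in cKO library 1, 0.58 in library 2 and 0.71 in library 3, whose structural RNA shares were 72.4%, 0.362% and 71.2% of counts. Library 1 lay above all WT libraries in 65 of the 86 members, library 2 in 57 and library 3 in 60, against 6101, 5773 and 6026 of 14617 features. Over the 37 risers, which were chosen with these same libraries, the medians were 2.18, 0.78 and 2.02. The part of structural RNA in these differences was not tested.

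Counts of calls moved with the libraries in the fit. With cKO libraries 1 and 3 both left out 3 of 88 members rose and none fell, while 9.07% of all features rose and 12.3% fell, so the share of members that rose was below that of all features. In that fit the lone cKO library is assumed to vary like the WT libraries. The 3 were Zfp738, Zfp931 and Zfp853, and the members' median was 0.52, against -0.03 for all features. Without cKO library 1, 16 of 86 members rose and none fell, against 11.9% and 15.2% of all features. Without cKO library 3, 19 of 87 rose and 2 fell, against 14.1% and 16.4%. Without WT library 1, 32 of 86 rose and 1 fell, against 16.2% and 17.2%. Without WT library 2, 13 of 87 rose and 3 fell, against 11.6% and 15.7%. Without WT library 3, 20 of 87 rose and 1 fell, against 14.8% and 16.5%. The members' median stayed between 0.58 and 0.80 in the 6 fits without 1 library. With limma-voom 25 of 86 rose and 4 fell, against 19.8% and 21.8% of all features, and among the named rises Zfp759, Zfp935, Zfp948, Zfp942 and Zfp711 were not called. On TPM no feature at all was called, the members' median was -0.19 against -0.79 for all features, and of the 42 called genes 30 kept their direction. On TPM without structural RNA 9 of 86 rose and none fell, against 5.52% and 11.1% of all features, with a median of 0.25 against -0.27, and 40 of the 42 kept their direction.

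The 5 falls were small. Zfp771, with 8 fingers, had 6.55, 6.81 and 5.07 CPM in cKO libraries, against 10.9, 7.39 and 9.66 CPM in WT libraries. The groups did not overlap, and the log2 fold change was -0.59 ± 0.20 (SE; edgeR adjusted p = 0.0446). Zfp768, which lies in the same chromosome 7 cluster, had 21.7, 25.5 and 25.9 CPM in cKO libraries, against 37.7, 30.1 and 35.7 CPM in WT libraries. Its groups were apart too, at -0.50 ± 0.13 (SE; edgeR adjusted p = 0.0187). Zfp787, Zfp710 and Zfp703 changed by -0.52 ± 0.15, -0.41 ± 0.13 and -0.36 ± 0.12 on the log2 scale (SE; edgeR adjusted p = 0.0236, 0.0368 and 0.0367). Zfp703, whose human counterpart is an amplified oncogene of breast cancer, had 14.3, 12.95 and 13.8 CPM in cKO libraries, against 17.09, 17 and 18.41 CPM in WT libraries. None of the 5 calls held in every fit without 1 library: the adjusted p reached 0.138 for Zfp771, 0.0911 for Zfp787, 0.0568 for Zfp768, 0.104 for Zfp710 and 0.105 for Zfp703, and that of Zfp703 was at least 0.0679 in all 6. DESeq2 did not call Zfp771 and Zfp703, and limma-voom did not call Zfp771.

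Members with a role in the literature were followed whatever their values. Zfp711 had 1.87, 0.528 and 2.67 CPM in cKO libraries of day 9, against 0.311, 0.179 and 0.116 CPM in WT libraries. It rose by 2.91 ± 0.71 on the log2 scale (SE; edgeR adjusted p = 0.0135) on 12, 21 and 19 counts in cKO and 11, 5 and 4 counts in WT libraries, and the call ended without cKO library 3 or WT library 2, with an adjusted p of up to 0.0591. Zfp827, whose human counterpart brings the NuRD complex to telomeres, had 66.1, 51.4 and 64.0 CPM in cKO libraries, against 36.7, 43.0 and 49.3 CPM in WT libraries, a rise of 0.49 ± 0.15 (SE; edgeR adjusted p = 0.0278). Zfp704 had 89.5, 75.2 and 78.0 CPM in cKO libraries, against 60.5, 58.5 and 34.8 CPM in WT libraries, a rise of 0.66 ± 0.21 (SE; edgeR adjusted p = 0.0431). The groups of both genes were apart in CPM, the adjusted p reached 0.107 for Zfp827 and 0.131 for Zfp704 without 1 library, and both estimates had the opposite sign on TPM.

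Zfp809, which recognises the primer binding site of murine leukaemia virus and silences it in embryonic cells, had 1.72, 1.58 and 1.27 CPM in cKO libraries of day 9, against 1.72, 1.004 and 0.494 CPM in WT libraries. Zfp746, the PARIS repressor that parkin targets, had 30.2, 32.1 and 33.2 CPM in cKO libraries, against 29.0, 30.6 and 35.3 CPM in WT libraries. Zfp706 had 92.6, 115 and 102 CPM in cKO libraries, against 81.5, 89.9 and 98.3 CPM in WT libraries. The groups overlapped in all 3 genes and none passed the test (edgeR adjusted p = 0.406, 0.955 and 0.197). Zfp708, known for binding a mouse transposon, had a count in 1 day 9 library, cKO library 2, and was not tested there, and Zfp750, an epidermal differentiation factor in human skin, and Zfp982 did not pass the filter at either day.

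Besides Zfp759, 3 of the 5 members with the smallest adjusted p for the difference between days, described further on, were called at day 9. Zfp931, a KRAB gene of the chromosome 2 cluster, had 5.77, 7.04 and 6.61 CPM in cKO libraries of day 9, against 2.91, 2.51 and 1.92 CPM in WT libraries. Its groups were apart with cKO library 2 the highest, the log2 fold change was 1.41 ± 0.22 (SE; edgeR adjusted p = 0.00199), and the call held in each fit without 1 library. Zfp853 had 1.72, 2.89 and 3.10 CPM in cKO libraries, against 1.41, 1.26 and 1.396 CPM in WT libraries, and Zfp956 had 9.82, 9.23 and 10.4 CPM in cKO libraries, against 7.40, 6.53 and 6.75 CPM in WT libraries. Both rose, by 0.94 ± 0.30 and 0.51 ± 0.14 (SE; edgeR adjusted p = 0.0367 and 0.0235), and both lost the call without some library, at an adjusted p of up to 0.110 and 0.0735.

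Counts by cluster stand against the 21% of all features that rose and the 22.6% that fell. In the chromosome 17 cluster from Zfp948 to Zfp945 (21567008 to 22867134), 13 KRAB genes over 1.3 Mb, 7 of 8 tested rose, with a median log2 fold change of 1.94. In the chromosome 13 cluster from Zfp712 to Zfp738 4 of 5 rose, with a median of 2.71, and Zfp712, the one not called, which is named after its value was seen, had an estimate of 2.80 (edgeR adjusted p = 0.0813). In the other chromosome 17 cluster, from Zfp871 to Zfp763, all KRAB as well, 1 of 6 rose, with a median of 0.76. In the chromosome 6 cluster from Zfp786 to Zfp775 the pattern found KRAB in 2 of 6 genes, of which Zfp783 is a pseudogene and was not searched. That cluster had 1 riser of 6 and a median of 0.04. The chromosome 7 cluster from Zfp771 to Zfp764 had 2 fallers of 4. Genes with no member within 1 Mb rose in 12 and fell in 2 of 29, with a median of 0.52. The clusters were not tested against one another, and of the 16 genes of the largest one, on chromosome 4, 1 was tested at day 9.

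**Figure D4:**
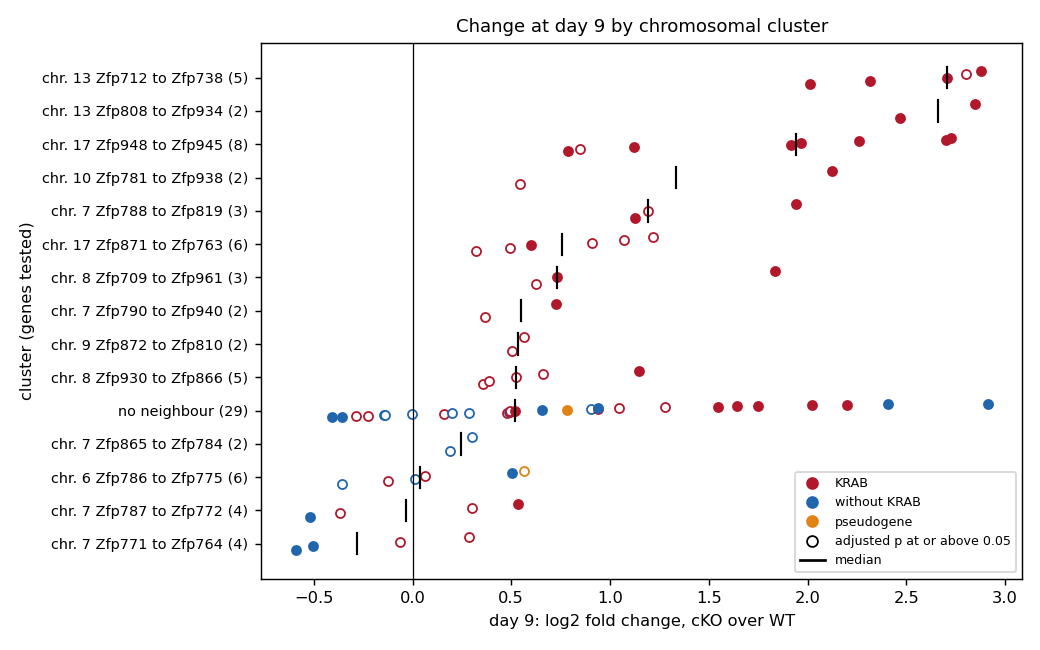
Log2 fold change of cKO over WT at day 9 for each gene tested, by chromosomal cluster with at least 2 genes tested and for the 29 genes with no neighbour, with a line at each median, filled where the adjusted p is under 0.05. The chromosome 13 and chromosome 17 clusters at the top lie wholly to the right of 0, and the chromosome 7 cluster from Zfp771 to Zfp764 has the lowest median, -0.28.

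Level, copies and symbols were looked at in turn. Under 2 CPM on average, 16 of 29 members rose and none fell, against 18.3% and 11.1% of all features at that level. From 2 to 8 CPM 16 of 37 rose and 1 fell, against 26.4% and 18.6%. At 8 CPM or more 5 of 20 rose and 4 fell, against 20.2% and 27.9%. Across the 86 genes mean log2 CPM and the log2 fold change had a Pearson correlation of -0.63, both values coming from the same libraries. Among the 35 genes with under 1% of words shared with other genes, 13 rose and 4 fell (all features 21% and 22.6%), with a median of 0.56. Of the 31 members absent from the day 9 table under these symbols, 27 were found there under an older symbol, 12 of those were tested, 5 rose and none fell. With them, 42 of 98 rose and 5 fell. Zfp994, for one, had 5.77, 1.28 and 7.88 CPM in cKO libraries, against 0.961, 0.968 and 0.785 CPM in WT libraries.

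Of 33 genes tested at day 9 from a list of partners and regulators of KRAB repression, 8 rose and 7 fell. These shares are close to the 21% and 22.6% of all features, and the median log2 fold change was 0.06. The list also holds Zfp57 and Zfp445, which are Zfp genes themselves and are among the rises. Uhrf1, which reads hemimethylated DNA and brings in Dnmt1, fell to 8.73, 9.05 and 11.1 CPM in cKO libraries, against 85.2, 106 and 74.8 CPM in WT libraries. The histone chaperone subunits Chaf1b and Chaf1a fell by 2.42 ± 0.18 and 2.15 ± 0.18 on the log2 scale, and Chd3, a NuRD remodeller, rose by 1.64 ± 0.15 (SE; edgeR adjusted p = 4.52e-05, 7.80e-05 and 0.000128). Other genes of the list are given outside the naming rule and were chosen after their values were seen. Trim28 had 145, 174 and 166 CPM in cKO libraries, against 246, 222 and 226 CPM in WT libraries. That was a fall of 0.51 on the log2 scale (edgeR adjusted p = 0.00809). Dnmt1, Suv39h1 and Hdac1 fell too, with log2 fold changes of -1.155, -0.755 and -0.376 (edgeR adjusted p = 0.000366, 0.000974 and 0.0131). Setdb1 had 70.6, 67.7 and 67.5 CPM in cKO libraries, against 56.2, 72.3 and 73.1 CPM in WT libraries. Fam208a and Mphosph8 rose by 2.62 and 2.23 on the log2 scale (edgeR adjusted p = 0.0142 and 0.0051). Smarcad1, Trim33 and Trim24 rose by 1.64, 1.47 and 1.01 (edgeR adjusted p = 0.0254, 0.0378 and 0.0105). Of the Zfp genes outside this range of symbols, Zfp57 and Zfp445 included, 91 of 236 tested rose and 14 fell, with a median of 0.46.

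Whether the day 9 change differed from the day 5 change was tested in 1 model over all 12 libraries and the symbols found once in both tables. The median difference, day 9 change minus day 5 change, was 0.64 over 90 members and -0.00 over all 15323 features. No member was called by edgeR's quasi-likelihood test (background 7.71%) or by DESeq2, 3 members had an unadjusted p under 0.05, and the smallest adjusted p was 0.161, for Zfp853. Without cKO library 2 of day 5, 14 members were called, and without any other single library none. The 7.71% belongs to the fit on all 12 libraries. The share of all features called without cKO library 2 is not given here, so the 14 have no background. For Zfp738 the difference was 2.28 ± 1.14 (SE; edgeR adjusted p = 0.3199), so the call at day 9 and its lack at day 5 is not shown to be a difference between days.

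Members with a larger spread between replicates at day 5 had larger changes at day 9. Across 85 members tested at both days, the within-genotype SD of log2 CPM at day 5 and the log2 fold change at day 9 had a Pearson correlation of 0.86 and a Spearman correlation of 0.86, and across 62 KRAB members both were close to that, at 0.86 and 0.87. Over 13505 features tested at both days, not matched for level, they were 0.47 and 0.35. The values come from different libraries, the points are genes and not independent replicates, and mean level is shared between the days. Zfp948 lay at an SD of 1.65 and a change of 2.73, Zfp942 at 1.80 and 2.70, and Zfp740 at 0.21 and -0.14. Zfp931 lay at an SD of 0.64 and a change of 1.41, and Zfp853 at 0.31 and 0.94.

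**Figure D5:**
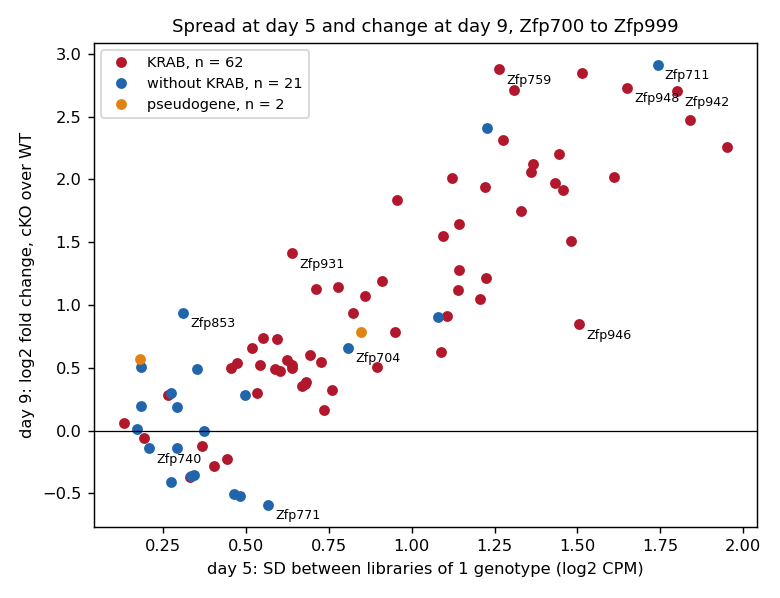
For the 85 genes tested at both days, the SD of log2 CPM between libraries of 1 genotype at day 5 (horizontal) and the log2 fold change of cKO over WT at day 9 (vertical), coloured by class. SDs run from 0.13 for Zfp786, with a change of 0.06, to 1.95 for Zfp758, with a change of 2.26.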

How the data were processed

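Expected counts and TPM per gene, as the authors deposited them for each day in its own table, were used. Per the submitters' processing notes, RSEM and Bowtie2 were used with mm10; strand setting and annotation version: not given in the sources used here. Day 5 Ensembl IDs were given symbols from a table of gene IDs and symbols (97.96% had one). The expected counts were rounded and, for each day alone, fitted with edgeR 4.0.16 (R 4.3.3): filterByExpr, TMM factors, robust quasi-likelihood fit and test of cKO against WT, with Benjamini-Hochberg adjustment over all features tested and a threshold of 0.05. CPM values use the TMM library sizes, and the SE of a log2 fold change is its size over the square root of the F statistic. The fit was tested on simulated counts. The day difference was a contrast over 12 libraries. DESeq2 1.42.0, limma 3.58.1 (voom, and log2(TPM + 1) on the deposited TPM), RLE factors, no filter, removal of the 12 structural RNA features (a group formed earlier from these data), a replicate block and left-out libraries were alternatives. Levels were not compared between days, because each day has its own table and the effect of either cannot be told apart.

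KRAB boxes and fingers were searched by pattern in the longest translated coding sequence of each gene in GENCODE vM21, since protein sequences from RefSeq, planned for this, were not used here. A stricter KRAB pattern marked 84 of the 103 genes. The members and lists were chosen with earlier results of these data known, so no list was tested as a set. Named genes are the 8 largest rises and falls among called members that averaged 1 CPM or more and had groups apart, or the 6 smallest p where fewer than 5 passed, the 5 highest mean TPM of each day, the 5 smallest adjusted p for the day difference, 12 members with a known role, up to 4 cofactors, and Lmnb1.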

Additional observations from a re-analysis of the deposited data

How the results depend on the processing

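At day 5 no alternative called a member. At day 9 the 37 rises and 5 falls became 37 and 3 with DESeq2 (all features 23.9% and 21.8%). With limma-voom they became 25 and 4 (27 of the 42 calls shared, all features 19.8% and 21.8%). The replicate block gave 30 and 2 (18.8% and 18.9%), and RLE factors 35 and 5 (21.45% and 22.7%). Without the filter 31 rose and 4 fell of 95 (9.71% and 13.05%). With structural RNA removed 31 rose and 6 fell of 87 (19.2% and 25.7%). TPM gave 0 and 0 (0 called in all, median -0.19). On TPM without structural RNA 9 rose and 0 fell (median 0.25, all features 5.52% and 11.1%). Without cKO replicates 1 and 3 together the members' median was 0.52. In deviations from group means, same-numbered cKO and WT libraries correlated at -0.72, -0.50 and 0.53 at day 5 and at -0.0014, -0.20 and -0.063 at day 9. The numbers thus do not show a pairing. Some day 5 libraries of unlike number did correlate: cKO 2 with WT 1 at 0.76, cKO 1 with WT 3 at 0.59 and cKO 1 with WT 2 at 0.54. Others were negative, such as cKO 2 with WT 3 at -0.69. Deviations of the libraries within a group cancel out, so these correlations depend on one another and are not separate observations. What these libraries share was not tested. The fits without 1 replicate gave 16 to 41 calls, 13 to 37 rises and 0 to 4 falls; all 42 genes called kept their direction in each. The day difference had 0 to 14 member calls without 1 replicate, with the 14 in the fit without cKO replicate 2 of day 5. The share of all features called in those fits is not given here. The members' day 5 median ran from -0.60 to 0.64. With the narrower level band, the 25th to 75th percentile, 25.7% of like-level features rose and 17.5% fell. On TPM the estimates of Zfp956, Zfp704 and Zfp827 turned to -0.29, -0.56 and -0.51, none called. The cause of these changes was not tested. With the stricter KRAB pattern 25 of 48 KRAB genes rose and no KRAB gene fell in the main fit. By the first pattern, 25 KRAB genes rose and 1 fell with structural RNA removed. Without cKO replicate 2 of day 9, 33 rose and 1 fell. Depth limits the low genes at day 9: the rises of Zfp759 and Zfp711 rest on 4 to 26 counts in a library.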
